A study of Oryza sativa with 12 samples.

Results

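The DELLA mutant slr1 (k1001) was compared directly with the F-box mutant gid2-1 of rice, Oryza sativa. All 3 arrays of slr1 and all 3 arrays of gid2-1 were used, which is 6 of the 12 arrays of the study. Shoots were taken 5 weeks after germination from plants raised in a greenhouse without controlled climate, and each array carried RNA of 1 biological replicate, hybridised to an Affymetrix rice array. Both mutants are in the background of the cultivar Taichung 65 (T65). The labels do not say whether either line differs from T65 at further loci. The 3 arrays of T65 itself and the 3 arrays of the receptor mutant gid1-3 did not enter the test, and their mean signals are given beside some genes as a description. The labels state neither the kind of lesion in each line nor whether slr1 (k1001) is a loss or a gain of function.

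Gibberellin is the plant hormone that drives stem elongation. It binds the soluble receptor GID1, and the occupied receptor then binds SLR1, the DELLA protein that represses growth. GID2 is the F-box subunit of the ubiquitin ligase that marks SLR1 for degradation. In rice, loss of GID2 is known to leave SLR1 in place and to dwarf the plant, whereas loss of SLR1 is known to give slender, elongated plants that do not need the hormone. A contrast of a DELLA mutant with an F-box mutant therefore asks which transcripts differ between lines mutated on opposite sides of the same degradation step.

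The values are probe-set signals, a probe set being the group of short probes that reads one transcript. Over the 57194 probe sets tested, the array medians ranged from 60.0 to 75.8. The 95th percentile of the 64 reporter control probe sets, used here as a background level, ran from 28.3 to 52.1, and 55.4 to 63.1% of the probe sets lay above it. Arrays of one line correlated at 0.981 or more, and arrays of different lines at 0.912 or less, over the probe sets at or above the median signal. Among probe sets brighter than the median, signals varied between the 3 arrays of a line by 8.85% in slr1 and 10.2% in gid2-1 (median coefficient of variation). The number of arrays limits the precision, and p-values measure the spread between these plants or pools of plants, which the labels do not distinguish.

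Markers of green leaf were bright in both lines. The photosystem I subunit gene PSAH, for example, had signals of 17193, 18904 and 20339 in slr1 and 9396, 10437 and 8859 in gid2-1. Of 5 green leaf markers, 3 were higher in slr1 and 2 were not called, among them RBCS1, whose probe set lay below the background level on all 6 arrays. The root phosphate transporter gene PT11 lay below the background level on all 6 arrays. LSI1, a silicon channel of roots, was measured and lower in slr1, at 740, 843 and 787 against 1733, 1626 and 1570 in gid2-1 (log2 difference -1.06 ± 0.08, SE). Of 8 seed storage genes, GLB1 was lower in slr1 and GLUA-2 higher, and the other 6 were not called. The call of GLUA-2 was lost without gid2-1 replicate 1 or 2 and without slr1 replicate 1 or 2. In shoots as a whole, fewer cells of a type and less RNA per cell cannot be told apart.

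A large part of the transcriptome differed between the lines. At an adjusted p under 0.05 (limma, Benjamini-Hochberg adjustment over all probe sets tested), 13669 of 57194 probe sets were called, which is 23.9%. Of these, 6201 were higher in slr1 (10.8%) and 7468 were lower (13.1%). A difference of at least 2-fold was reached by 2530 of the higher and 2367 of the lower probe sets, and one of at least 10-fold by 170 in each direction. Counted by gene, with each gene represented by its brightest probe set, 3859 of 17905 genes were higher in slr1 (21.6%) and 4501 were lower (25.1%). The median log2 difference over all genes was -0.05. These shares of genes are the background for each gene list below. The lists were matched by gene name, and named genes were called more often. Of 2458 named genes, 661 were higher in slr1 and 643 were lower.

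T65 often lay outside the interval between the mutants. For 54.0% of the probe sets higher in slr1 the T65 mean fell between those of slr1 and gid2-1. It lay above both mutants for 32.1% and below both for 13.8%. For the probe sets lower in slr1, 59.3% had T65 between the mutants, 29.1% had it below both and 11.6% had it above both. The gid1-3 mean was nearer to gid2-1 than to slr1 for 67.7% of the higher and 68.1% of the lower probe sets.

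The largest rises among named genes came from small heat shock proteins, transporters and chloroplast genes. HSP16.0, a small heat shock protein, had signals of 925, 1188 and 1835 in slr1 and 5.49, 27.6 and 6.48 in gid2-1. All 3 gid2-1 arrays were below the background level, so the difference is a bound: HSP16.0 was at least 32.2-fold higher in slr1 (adjusted p = 4.6e-06). This bound, like those below, sets the mean of the brighter line against each array's background level or its own signal, whichever was higher.

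CRSH2, a calcium-activated synthase of the alarmone ppGpp in chloroplasts, had signals of 4951, 4768 and 4262 in slr1 against 124, 60.3 and 122 in gid2-1, a log2 difference of 5.58 ± 0.23. T65 averaged 3923 ± 92.4 and gid1-3 135 ± 37.3 for this gene (SD, n = 3 each), so that T65 stood near slr1 and gid1-3 near gid2-1. The vacuolar aquaporin TIP1-2 had 3771, 3867 and 3594 in slr1 and 85.7, 78.8 and 79.2 in gid2-1, a log2 difference of 5.53 ± 0.09, and T65, at 6886 ± 101, was above both. The small heat shock protein HSP24.1 read 3079, 3146 and 2962 in slr1 and 67.8, 94.1 and 101 in gid2-1, with a log2 difference of 5.15 ± 0.14. The largest rises and falls were chosen for no overlap and a large difference, so neither is a further result for these genes.

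NAS2 makes nicotianamine, a chelator of iron. Its signals were 643, 594 and 666 in slr1 and 11.3, 50.7 and 12.2 in gid2-1, where 2 of 3 arrays were below the background level. Nramp1, a metal transporter that carries iron, had 1910, 1998 and 1924 in slr1 against 66.2, 92.5 and 107 in gid2-1 (log2 difference 4.48 ± 0.16). The calcium sensor kinase gene CIPK05 had 1051, 1065 and 1089 in slr1 and 13.6, 74.6 and 35.9 in gid2-1, with 1 gid2-1 array below the background level. CAO, whose enzyme leads to chlorophyll b, had 6618, 7319 and 6948 in slr1 and 469, 452 and 496 in gid2-1, a log2 difference of 3.88 ± 0.08. The other rises among the 12 largest were HSP17.4, the chloroplast protease homologue EGY3, the glutaredoxin GRXC1 and the homeobox gene HOX24, with log2 differences of 3.82 to 4.16.

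The largest falls included 2 clock genes, a heat shock factor and enzymes of several pathways. PCL1, the rice relative of the Arabidopsis evening-complex gene LUX, had signals of 24.4, 4.42 and 6.79 in slr1 and 4050, 3706 and 3864 in gid2-1. It was at least 105-fold lower in slr1 (adjusted p = 4.3e-07), all 3 slr1 arrays being below the background level. BBD1 had 68.3, 67.6 and 114 in slr1 against 8664, 9795 and 8048 in gid2-1, a log2 difference of -6.77 ± 0.18. T65 averaged 526 ± 44.4 for BBD1 and stood between the mutants.

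ICL, the isocitrate lyase of the glyoxylate cycle, had 172, 121 and 151 in slr1 and 2931, 3171 and 2860 in gid2-1 (log2 difference -4.35 ± 0.13). T65 averaged 3604 ± 142 for ICL, above both mutants. BURP16, a member of a family of secreted plant proteins, had 218, 220 and 183 in slr1 and 4654, 4900 and 4449 in gid2-1 (log2 difference -4.50 ± 0.09), and T65 was below both, at 130 ± 31.9. CCD8A, a relative of the carotenoid cleavage dioxygenase of strigolactone synthesis, was at least 9.13-fold lower in slr1, with 14.5, 22.6 and 30.7 in slr1 against 322, 321 and 373 in gid2-1 (adjusted p = 6.1e-06). The log2 differences of the ABC transporter ABCG45, the homeobox gene WOX6, the laccase LAC24 and the kinase SAPK9 ran from -4.00 to -3.30. The slr1 signals of ABCG45 were below the background level on 2 arrays and those of WOX6 on 1, and the probe set of SAPK9 can bind related transcripts.

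**Figure D1:**
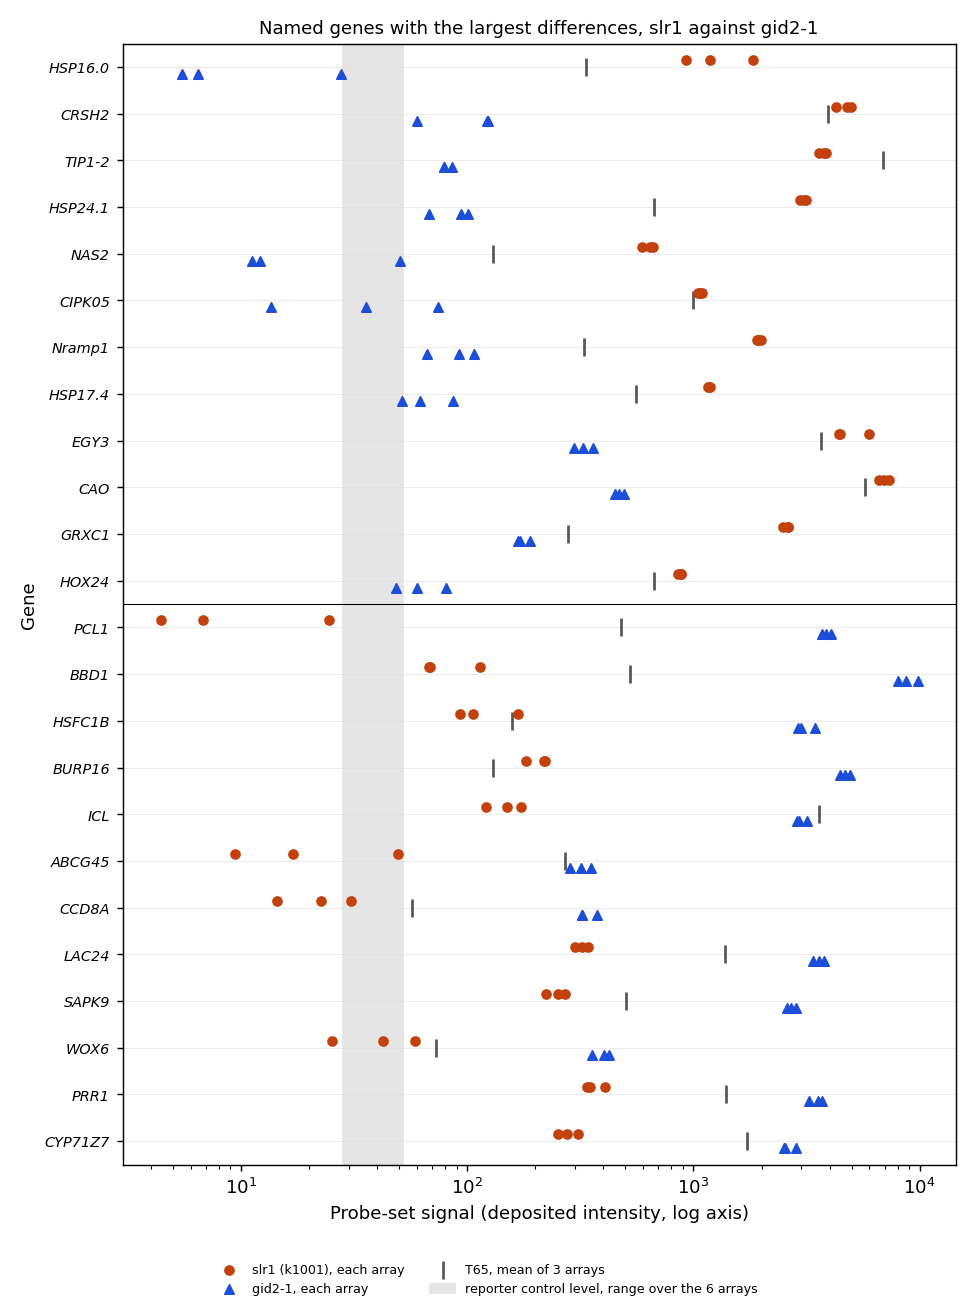
Signals of the 24 named genes with the largest differences, on a log axis, with 1 point per array for slr1 (k1001) above and gid2-1 below in each row, a tick for the T65 mean and a grey band for the reporter control level over the 6 arrays. Genes were chosen to have no overlap, so all 3 slr1 arrays lie above all 3 gid2-1 arrays for the 12 genes above the line. The 12 genes below it have the opposite order by the same choice. T65 lay between the mutants for 21 genes, above both for TIP1-2 and ICL and below both for BURP16.

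The genes of gibberellin signalling differed little in size, apart from the receptor gene by its brightest probe set. Of 7 measured, 3 were higher in slr1, 2 were lower and 2 were not called. GID1 (LOC4338764), the receptor gene, had signals of 2466, 2456 and 2461 in slr1 and 6252, 6457 and 5628 in gid2-1. The slr1 signals lay well below those of gid2-1 and below the T65 mean of 4494, and the log2 difference was -1.31 ± 0.08 (adjusted p = 5.9e-07). In gid1-3 the same probe set averaged 6407. With the probe sets of GID1 averaged, the log2 difference between slr1 and gid2-1 was -0.79 (adjusted p = 0.0089, limma).

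SLR1 (LOC4333860), the DELLA gene itself, had 1472, 1631 and 1592 in slr1 and 1103, 1177 and 1124 in gid2-1, a log2 difference of 0.46 ± 0.08 with no overlap. Since the lesions are not given in the labels, these signals do not check which allele a plant carried. The entry for GID2 (LOC4329775) also bears the name GF14E, a 14-3-3 protein, so its probe set may read either transcript. It had 8525, 9331 and 9408 in slr1 against 5921, 7174 and 6204 in gid2-1 (log2 difference 0.50 ± 0.09). The DELLA-like gene SLRL1 had 334, 306 and 302 in slr1 and 193, 205 and 172 in gid2-1 (log2 difference 0.73 ± 0.13).

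SPY encodes an enzyme that represses gibberellin responses. Its signals were 1028, 916 and 994 in slr1 and 1511, 1464 and 1387 in gid2-1 (log2 difference -0.57 ± 0.08). Calls of SLR1, SLRL1, SPY and the GID2 entry were lost when the arrays were centred on the spiked controls, and that of GID1 was not. The differences themselves hardly moved, with SLR1 at 0.47 and SPY at -0.57 on the log2 scale under that centring. The call of the GID2/GF14E entry was also lost when the prior variance had no trend. The casein kinase gene EL1 and the transcription factor gene GAMYB, a gibberellin target in cereal grains, had log2 differences of -0.22 ± 0.12 and 0.03 ± 0.09 and were not called.

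In the synthesis and inactivation of gibberellin, 2 of 7 genes were higher in slr1, 2 were lower and 3 were not called. GA20OX3 encodes an oxidase late in the pathway. It had 468, 527 and 530 in slr1 and 1586, 1682 and 1641 in gid2-1, a log2 difference of -1.69 ± 0.08 (adjusted p = 1.7e-07). T65 averaged 848 and gid1-3 averaged 2269, so T65 stood between the mutants compared and gid1-3 stood above gid2-1. GA20ox2, the semidwarf gene of the green revolution, had 365, 335 and 249 in slr1 and 330, 370 and 451 in gid2-1, and these overlapped.

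CPS1 encodes the first committed enzyme of the pathway. Its signals were 412, 411 and 454 in slr1 and 160, 226 and 178 in gid2-1, a log2 difference of 1.19 ± 0.15, with a T65 mean of 452. KS1, which acts after CPS1, had a log2 difference of 0.39 ± 0.09, and this call was lost in 5 alternative settings, the 2-fold threshold and the fit without slr1 replicate 2 among them. D35, the ent-kaurene oxidase gene, fell by 0.64 ± 0.11 on the log2 scale. The inactivating enzyme gene EUI1 had 115, 127 and 89.0 in slr1 and 61.4, 115 and 59.9 in gid2-1, which overlapped, and KAO was not called.

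Alpha-amylases are the classical gibberellin targets of the germinating grain. Of 5 measured in these shoots, 3 lay below the background level on all 6 arrays. Amy2A fell, with 134, 133 and 97.6 in slr1 against 386, 327 and 393 in gid2-1 (log2 difference -1.61 ± 0.17). The other 4, Amy3D among them, were not called.

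**Figure D2:**
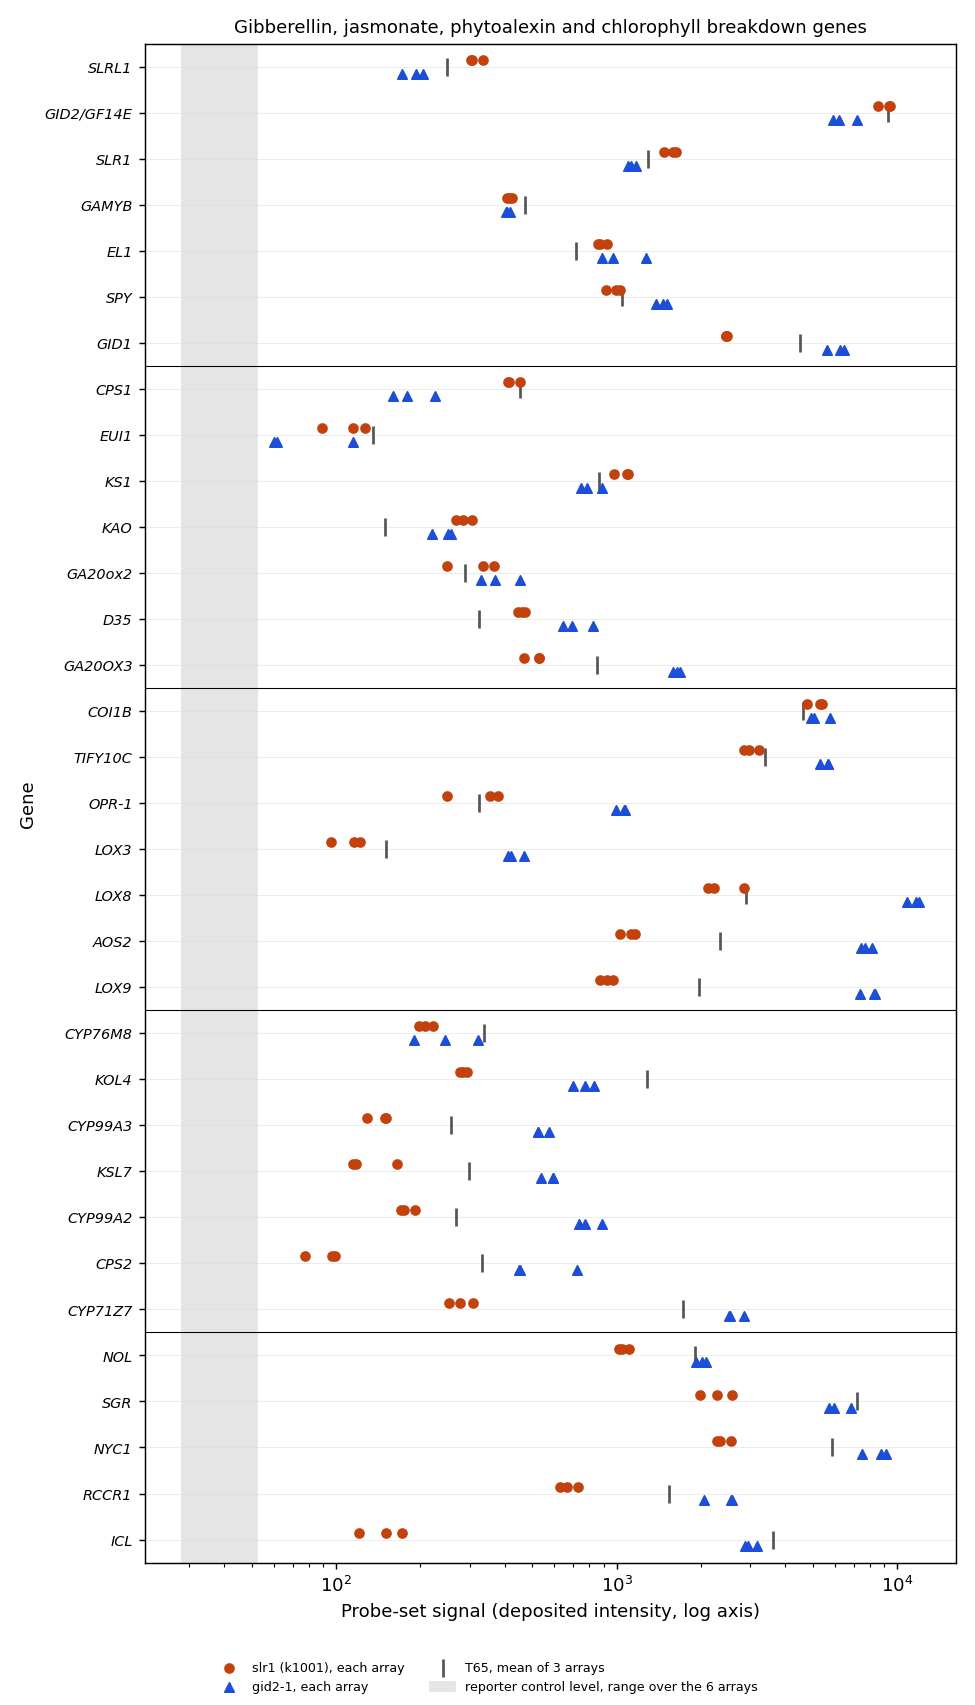
Signals on a log axis of genes of gibberellin signalling, gibberellin synthesis, jasmonate, diterpenoid phytoalexins and chlorophyll breakdown with the glyoxylate cycle, in blocks from top to bottom, with 1 point per array for slr1 (k1001) above and gid2-1 below in each row. GID1 and GA20OX3 are lower in all 3 slr1 arrays. The lower 3 blocks are mostly shifted to lower signals in slr1, apart from COI1B and CYP76M8, whose arrays overlap. The jasmonate and phytoalexin genes drawn are those with the smallest limma p, plus the gene with the largest p of each list. A clear difference in most of them therefore follows from that choice. Of all 39 jasmonate genes 13 were lower in slr1, 2 were higher and 24 were not called. Of all 17 phytoalexin genes 14 were lower, 2 were higher and 1 was not called.

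The gene lists differed in how often and in which direction their members were called. Medians of the lists with at least 5 members ran from -1.86 for the diterpenoid phytoalexin genes to 0.66 for the tubulins, against -0.05 for all genes. The lists are described below by role, each with its count of calls to be read against 21.6% of all genes higher and 25.1% lower. The counts of named genes given above are a second background. No direction is read from list counts near either of them. Centring the arrays on the spiked controls lowered most counts by more than 1.5 times. It gave 7 expansins higher and 2 lower, 7 lignin or laccase genes higher and 3 lower, 7 aquaporins higher and 4 lower, and 8 sugar genes higher and 2 lower. It gave 1 jasmonate gene higher and 7 lower, 4 metal genes higher and 6 lower, and 7 calcium sensor kinase genes higher and 5 lower. Without a trend in limma's prior variance 5 tubulins, 4 cyclins or kinases, 4 auxin genes, 2 carotenoid and strigolactone genes, 2 nitrogen genes and 9 calcium sensor kinase genes were called higher. In that fit 3 KNOX genes, 10 calcium sensor kinase genes and 3 sugar genes were called lower. Centring on array medians gave 3 lignin and laccase genes, 2 chitinases and glucanases, 2 abscisic acid genes, 7 auxin genes, 3 cytokinin genes, 10 calcium sensor kinase genes and 3 sugar genes lower.

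**Figure D3:**
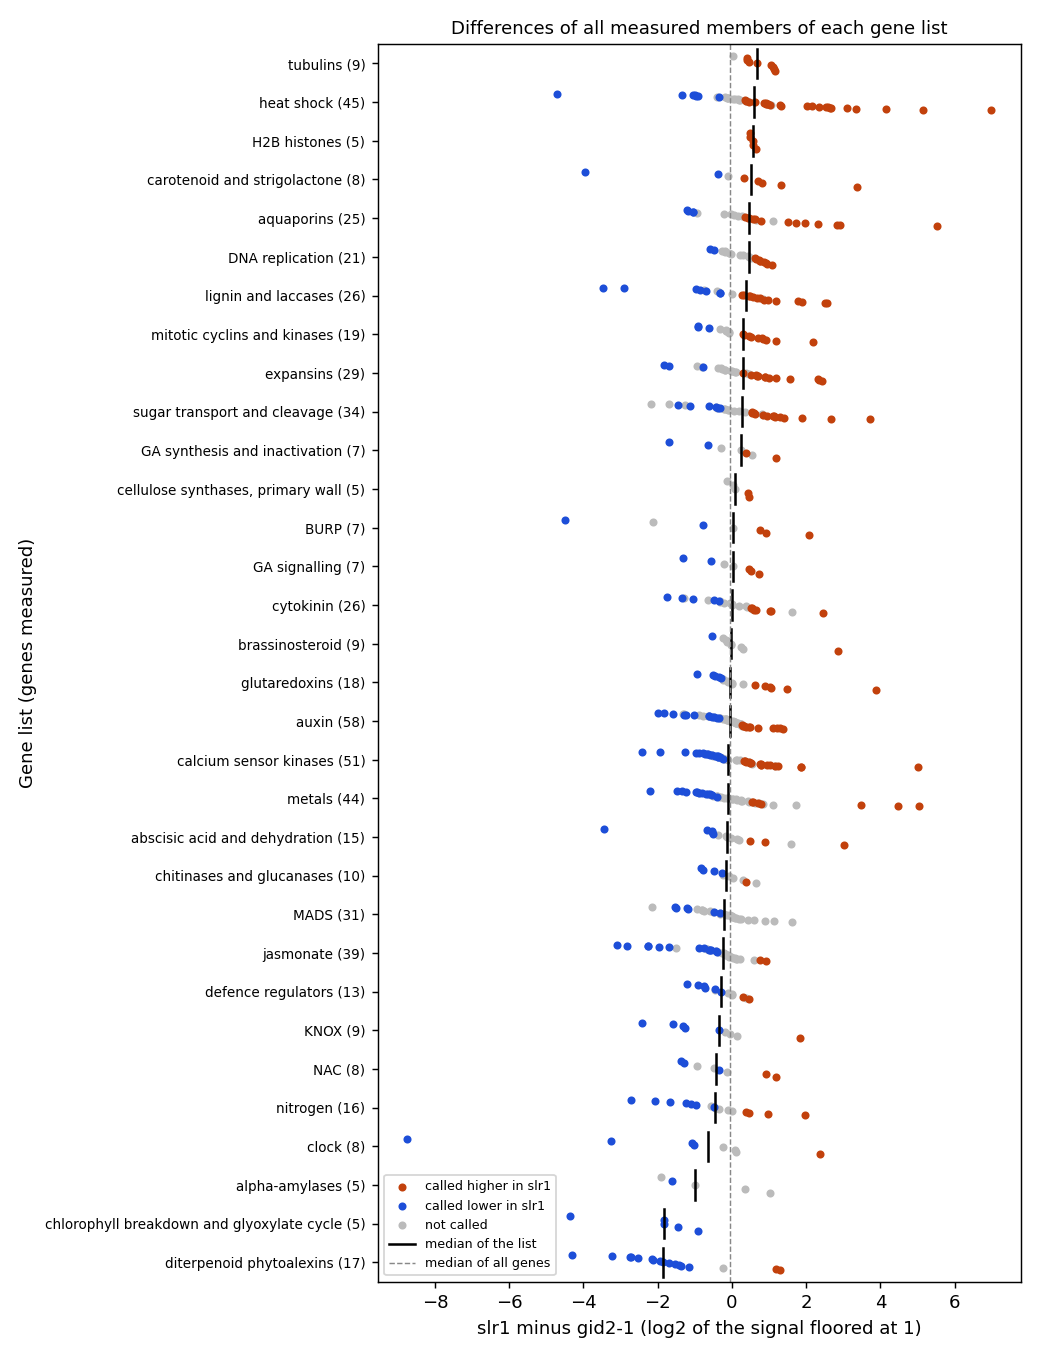
Log2 differences, slr1 minus gid2-1, of every measured member of each gene list with at least 5 members, sorted by the list median. Tubulin, heat shock and H2B histone genes stand highest, with medians of 0.66, 0.60 and 0.56, and chlorophyll breakdown and diterpenoid phytoalexin genes lowest, with medians of -1.82 and -1.86, while heat shock genes span the widest range on the higher side, up to 6.99.

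All 3 cellulose synthases of the secondary wall were higher. CESA4 had signals of 4360, 4023 and 4176 in slr1 and 1815, 1621 and 1724 in gid2-1, a log2 difference of 1.28 ± 0.08. CESA7 had 5297, 4641 and 3163 in slr1 against 1421, 1092 and 1209 in gid2-1 (log2 difference 1.79 ± 0.17). CESA9 had 1660, 1696 and 1856 in slr1 and 861, 710 and 540 in gid2-1 (log2 difference 1.33 ± 0.15). For all 3 the T65 mean lay between the mutants, and gid1-3 averaged lower than gid2-1, at 434, 376 and 133 in the same order. These 3 genes also mark vascular and fibre cells, and the share of such cells in the shoots was not measured in another way.

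Of 5 cellulose synthases of the primary wall, CESA1 and CESA8 were higher in slr1 and the other 3 were not called. CESA1 had 9014, 9343 and 9322 in slr1 and 6495, 7245 and 6544 in gid2-1 (log2 difference 0.45 ± 0.08). The T65 mean of CESA1 was 11127, above both mutants. The calls of CESA1 and CESA8 were lost with arrays centred on the spiked controls, and also when limma's prior variance had no trend.

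Lignin and laccase genes went both ways, with 14 of 26 higher, 7 lower and 5 not called. CAD3, a cinnamyl alcohol dehydrogenase, had 4996, 5299 and 4082 in slr1 and 849, 741 and 922 in gid2-1, a log2 difference of 2.51 ± 0.11. LAC4, a laccase, had 1201, 1320 and 1120 in slr1 against 190, 251 and 178 in gid2-1 (log2 difference 2.57 ± 0.14). In the opposite direction, LAC24 had 344, 320 and 301 in slr1 and 3382, 3577 and 3775 in gid2-1. The dehydrogenase gene CAD8A also fell, with 53.3, 83.4 and 78.7 in slr1 and 562, 430 and 594 in gid2-1 (log2 difference -2.89 ± 0.21). LAC7 and LAC10 were higher in slr1 with no overlap, and 4CLL4 was not called.

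Expansins loosen the wall during growth. Of 29 measured, 13 were higher in slr1, 3 were lower and 13 were not called, 4 of which lay below the background level throughout. EXPB11 had 1674, 1592 and 1554 in slr1 and 334, 311 and 307 in gid2-1, a log2 difference of 2.34 ± 0.08 (adjusted p = 2.0e-08). EXPB2 had 1080, 1316 and 1358 in slr1 against 234, 281 and 192 in gid2-1, with T65 at 1159. EXPA2 had 1101, 1175 and 1246 in slr1 and 470, 549 and 525 in gid2-1, with T65 above both at 1997. The expansin-like gene EXLA3 ran the other way, at 222, 229 and 199 in slr1 against 690, 938 and 690 in gid2-1. The median of the list was 0.29. XTH8, the measured member of the xyloglucan enzymes, had an adjusted p of 0.055 and was not called, but was called higher under 4 alternatives, that without slr1 replicate 3 among them.

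Tubulins build the microtubules that guide cellulose deposition and separate chromosomes. Of 9 measured, 8 were higher in slr1 and none was lower, with a median log2 difference of 0.66. The T65 mean lay between the mutants for all 8. TUBB8 had 5330, 4880 and 4215 in slr1 and 1978, 2178 and 2314 in gid2-1 (log2 difference 1.15 ± 0.10). TUBB1 had 9982, 10904 and 12299 in slr1 against 4800, 5768 and 5326 in gid2-1 (log2 difference 1.06 ± 0.10). TUBB3 was the exception, with 9643, 9833 and 9520 in slr1 and 9744, 9558 and 8936 in gid2-1, which overlapped. With arrays centred on the spiked controls 4 tubulins were called higher. With the probe sets of each gene averaged 7 were called higher and none lower. TUBB4 then lost its call, at a log2 difference of 0.23 instead of 0.66 (adjusted p = 0.45, limma). TUBB3 moved to -0.23 and was not called.

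Genes of the cell cycle and of DNA replication were called higher more often than lower. Among cyclins and their kinases 10 of 19 were higher in slr1, 3 were lower and 6 were not called. The mitotic cyclin CYCB1-1 had 1664, 1717 and 1668 in slr1 and 862, 987 and 968 in gid2-1, a log2 difference of 0.84 ± 0.08. CYCD3-1, a cyclin of the entry into the cycle, had 456, 443 and 434 in slr1 against 204, 170 and 209 in gid2-1. CYCD5-3 was lower, at 935, 1046 and 959 in slr1 against 1830, 1789 and 1938 in gid2-1 (log2 difference -0.92 ± 0.08). With arrays centred on the spiked controls 3 cyclin or kinase genes were called higher and 2 lower.

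Among replication genes 9 of 21 were higher in slr1, 2 were lower and 10 were not called. Neither lower call held without gid2-1 replicate 1 or 2 or without slr1 replicate 2 or 3, and 1 held without slr1 replicate 1. PCNA, the sliding clamp of DNA polymerase, had 1636, 1700 and 1750 in slr1 and 759, 826 and 817 in gid2-1, a log2 difference of 1.08 ± 0.08 (adjusted p = 2.2e-06). MCM2, part of the replicative helicase, had 1418, 1812 and 1291 in slr1 against 752, 862 and 706 in gid2-1. MCM4 and MCM3 of the same helicase were also higher, with log2 differences of 0.87 ± 0.09 and 0.62 ± 0.09. T65 lay between the mutants for all 9 genes that were higher.

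All 5 H2B histone genes measured were called higher in slr1, with log2 differences of 0.50 to 0.66. H2B.10 had 2979, 2864 and 2695 in slr1 and 1815, 1776 and 2227 in gid2-1. The arrays of H2B.7 overlapped, and its probe set can bind related transcripts. None of the 5 was called with arrays centred on the spiked controls, nor when limma's prior variance had no trend.

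**Figure D4:**
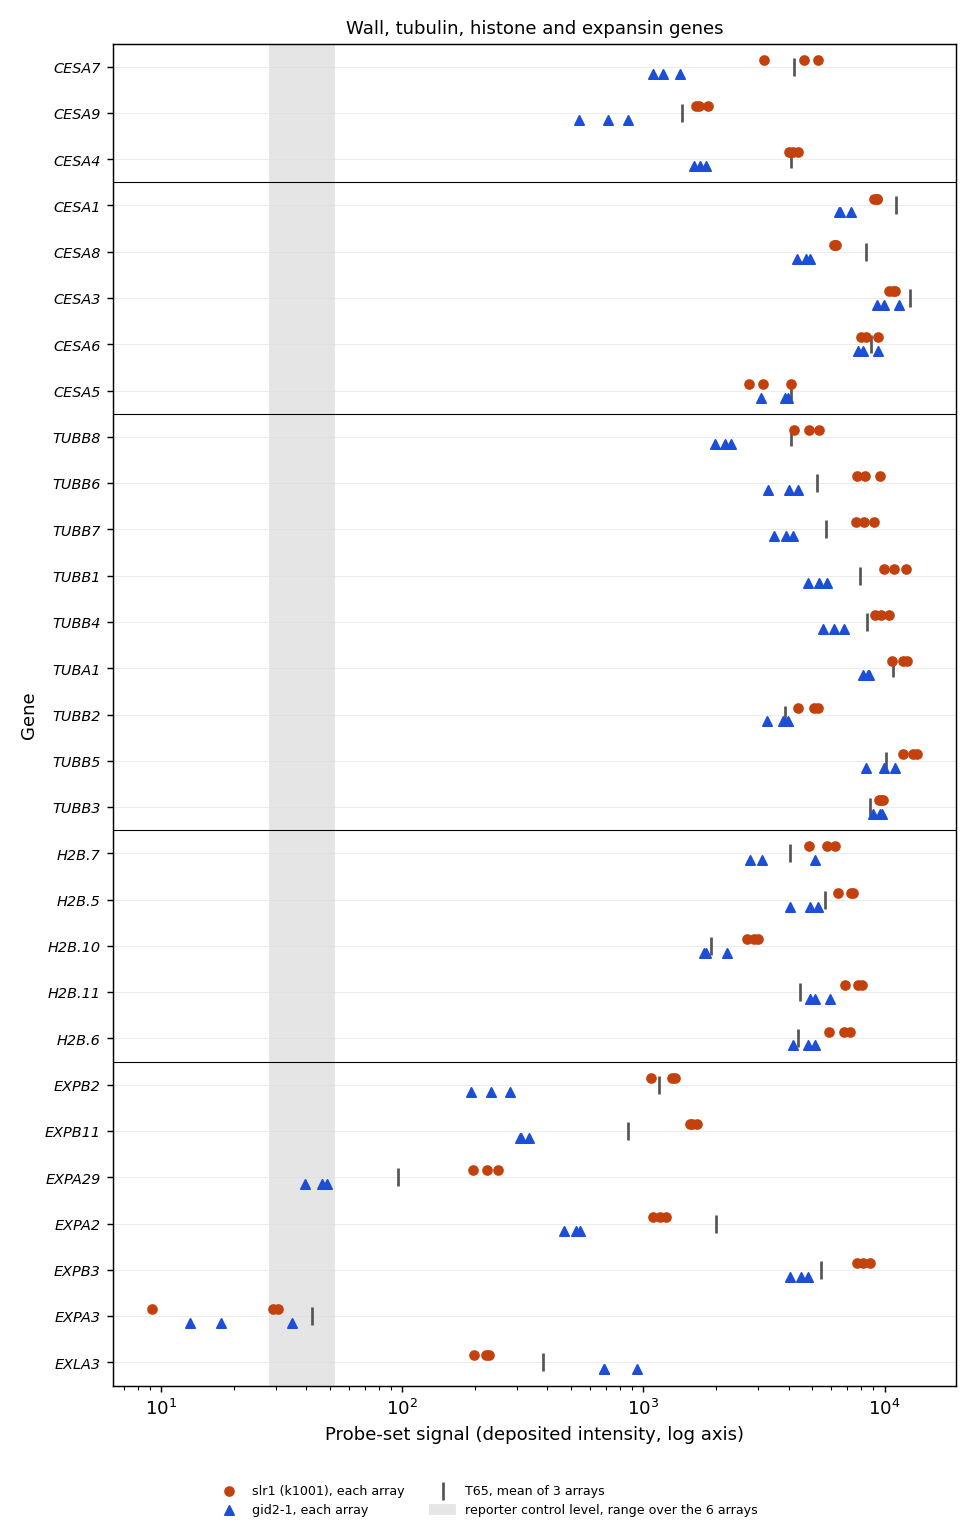
Signals on a log axis of secondary wall and primary wall cellulose synthases, tubulins, H2B histones and the named expansins, in blocks from top to bottom, with 1 point per array for slr1 (k1001) above and gid2-1 below in each row and a tick for the T65 mean. All 3 secondary wall genes and 8 of 9 tubulins are higher in slr1, TUBB3 overlaps, and EXLA3 is lower in slr1.

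KNOX homeobox genes, some of which keep cells of the meristem and young stem undifferentiated, were mostly lower. Of 9 measured, 5 were lower in slr1, 1 was higher and 3 were not called. OSH1, the meristem marker, had 408, 360 and 338 in slr1 and 1032, 1053 and 1233 in gid2-1, a log2 difference of -1.58 ± 0.11. T65 averaged 1214 for OSH1 and gid1-3 436, so the level of gid2-1 stood near T65 and that of slr1 near gid1-3. OSH71 had 351, 309 and 322 in slr1 against 773, 813 and 768 in gid2-1, and OSH6 had 161, 169 and 133 in slr1 against 355, 398 and 407 in gid2-1. OSH43, which was at least 2.47-fold higher in slr1, lay below the background level in gid2-1, and its call was lost without slr1 replicate 2. Of this list, OSH1, OSH71, OSH6 and OSH43 also mark stem and meristem tissue, whose share in the shoots was not measured in another way.

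Aquaporins are the water channels of the plasma membrane and vacuole. Of 25 measured, 13 were higher in slr1, 4 were lower and 8 were not called, with a median log2 difference of 0.47. Besides TIP1-2, PIP2-2 had 15640, 15446 and 14872 in slr1 and 1942, 2098 and 2066 in gid2-1, a log2 difference of 2.91 ± 0.07 (adjusted p = 3.4e-09). PIP2-4 had 382, 452 and 383 in slr1 and 65.9, 47.3 and 58.5 in gid2-1, while T65 averaged 1819, above both. PIP1-3 had 1239, 1438 and 1327 in slr1 against 359, 435 and 420 in gid2-1, and here too T65 was above both, at 7129. For 7 of the 13 higher genes T65 lay above both mutants. NIP2-2, a silicon channel, had 6038, 6143 and 5836 in slr1 and 2258, 2099 and 2015 in gid2-1. TIP4-1 was lower, at 4870, 5511 and 4681 in slr1 against 11006, 12178 and 11879 in gid2-1.

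The clock genes differed strongly and in both directions. LHY is a morning-phased clock gene. Its signals were 14698, 15081 and 16623 in slr1 and 2978, 3069 and 2934 in gid2-1, a log2 difference of 2.37 ± 0.08 (adjusted p = 1.4e-08). T65 and gid1-3 stood near slr1, at 13628 and 13499. PRR1, the rice relative of the Arabidopsis evening gene TOC1, ran the other way, with 406, 349 and 339 in slr1 and 3719, 3548 and 3230 in gid2-1 (log2 difference -3.26 ± 0.09).

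GI, a clock gene that links day length to flowering, had 7048, 6848 and 6918 in slr1 and 14505, 16645 and 12724 in gid2-1 (log2 difference -1.07 ± 0.10). PRR95 had 4782, 4409 and 4052 in slr1 against 10422, 7787 and 8860 in gid2-1 (log2 difference -1.02 ± 0.11). PCL1, given above, was the fourth lower gene of the 8. PRR37, PRR73 and the flowering gene Hd1 were not called, and Hd1 lay below the background level on all 6 arrays. The lines did not overlap for any of the 5 called clock genes, as for 36.0% of all probe sets tested. The slr1 arrays of PCL1 were all below the background level and differed widely among themselves, so they have no usable order. The labels do not give the hour of harvest, and its part in the other differences was not tested.

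The green leaf markers named above, which follow light and the clock in many plants, were higher in slr1 in 3 of 5 cases. PSAG, a subunit of photosystem I, had 5588, 5746 and 5076 in slr1 and 858, 747 and 838 in gid2-1, a log2 difference of 2.75 ± 0.08. RCA, the activase of Rubisco, had 24655, 27348 and 29516 in slr1 against 15194, 17749 and 13654 in gid2-1. CAB2R, a chlorophyll-binding protein, had 23845, 29268 and 32324 in slr1 and 21936, 23156 and 19980 in gid2-1 and was not called.

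Heat shock genes were more often higher in slr1. Of 45 measured, 24 were higher, 7 were lower and 14 were not called, and the median log2 difference was 0.60. HSP17.4, a small heat shock protein, had 1167, 1160 and 1183 in slr1 and 51.7, 62.2 and 86.5 in gid2-1, where 1 array was below the background level. HSP81-1, a member of the HSP90 family, had 12627, 13856 and 14334 in slr1 against 3137, 3284 and 3532 in gid2-1 (log2 difference 2.04 ± 0.08). T65 and gid1-3 were near slr1 for HSP81-1, at 12813 and 12430. T65 lay between the mutants for 14 of the 24 higher genes and above both for 9.

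Heat shock factors, the transcription factors of this response, took part in both directions. HSFB2C had 2779, 2688 and 2791 in slr1 and 326, 353 and 281 in gid2-1, a log2 difference of 3.11 ± 0.10. HSFB2A had 2298, 2364 and 2310 in slr1 against 477, 400 and 498 in gid2-1 (log2 difference 2.35 ± 0.09). HSFC1B was far lower, with 92.6, 106 and 168 in slr1 and 2980, 3453 and 2901 in gid2-1 (log2 difference -4.71 ± 0.19). HSP21.9 lay below the background level on all 6 arrays. With arrays centred on the spiked controls 15 heat shock genes were called higher and 5 lower.

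**Figure D5:**
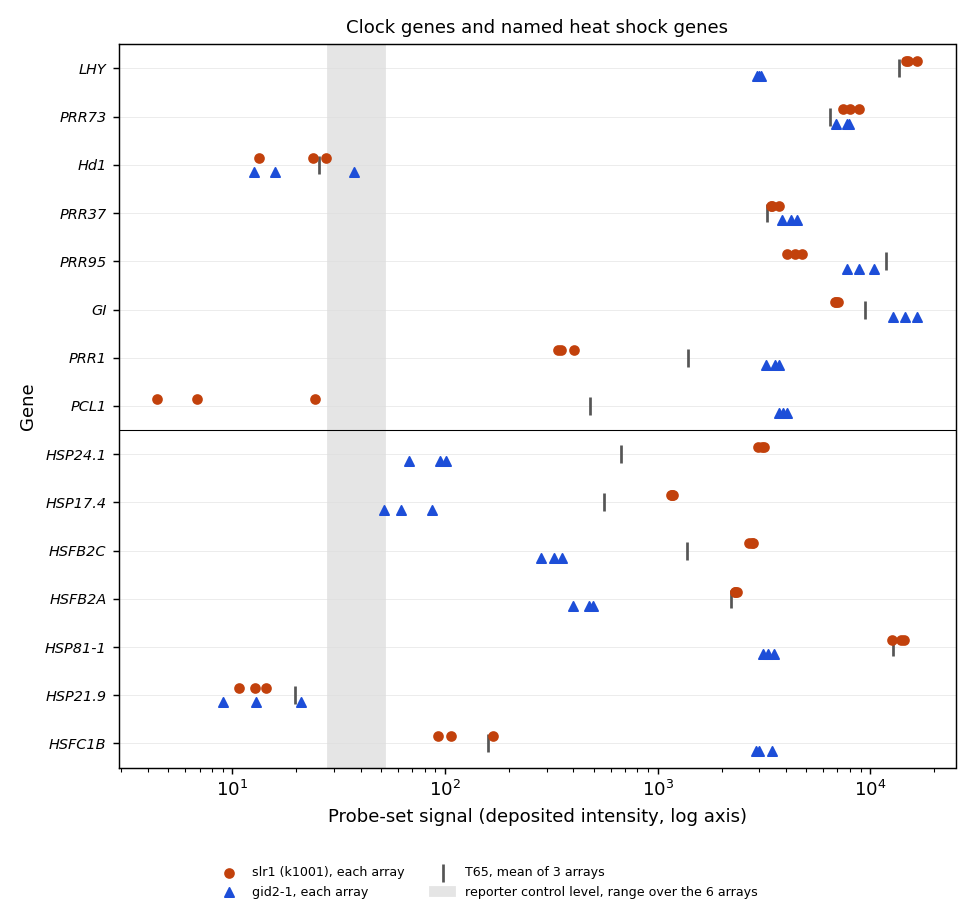
Signals on a log axis of the 8 clock genes, upper block, and of the named heat shock genes, lower block, with 1 point per array for slr1 (k1001) above and gid2-1 below in each row, a tick for the T65 mean and a grey band for the reporter control level. LHY is higher in slr1 and PRR95, GI, PRR1 and PCL1 are lower, and in the lower block HSFC1B lies opposite to the other called genes.

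Jasmonate is a fatty-acid hormone of wounding and defence. Of 39 genes of its synthesis and response, 13 were lower in slr1, 2 were higher and 24 were not called. The largest falls were in the enzymes. LOX9, a lipoxygenase, had 927, 975 and 874 in slr1 and 8322, 7372 and 8264 in gid2-1, a log2 difference of -3.11 ± 0.08 (adjusted p = 3.5e-09). AOS2, an allene oxide synthase, had 1130, 1164 and 1025 in slr1 against 8164, 7710 and 7462 in gid2-1 (log2 difference -2.81 ± 0.08). LOX8 had 2856, 2219 and 2121 in slr1 and 11941, 11691 and 10858 in gid2-1, while T65 averaged 2882 and gid1-3 12644, so that slr1 stood near T65 and gid2-1 near gid1-3.

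LOX3 and the oxophytodienoate reductase family member OPR-1 were lower in slr1 too, by 1.97 ± 0.15 and 1.70 ± 0.15 on the log2 scale. TIFY10C, a repressor of the jasmonate response, had 2856, 2978 and 3232 in slr1 and 5293, 5669 and 5658 in gid2-1. The receptor gene COI1B had overlapping signals and a log2 difference of -0.02 ± 0.09. The 2 genes that were higher were LOX2 and OPR11, with log2 differences of 0.93 ± 0.12 and 0.75 ± 0.07.

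Diterpenoid phytoalexins are antimicrobial compounds that rice makes from a precursor shared with gibberellin. Of 17 genes measured, 14 were lower in slr1, 2 were higher and CYP76M8 was not called. The median log2 difference was -1.86, or -1.82 with the gene that was below background in slr1, CYP701A9, at its bound. CPS2, a synthase at the head of the pathway, had 99.3, 77.7 and 96.4 in slr1 and 448, 452 and 724 in gid2-1 (log2 difference -2.54 ± 0.21). This is the opposite direction to CPS1, which feeds gibberellin.

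CYP71Z7, an enzyme of the phytocassane branch, had 278, 308 and 252 in slr1 against 2854, 2511 and 2538 in gid2-1 (log2 difference -3.24 ± 0.10). KSL7, the cyclase of that branch, had 115, 118 and 165 in slr1 and 592, 592 and 536 in gid2-1. CYP99A2 and CYP99A3 of the momilactone cluster had 175, 170 and 191 and 129, 150 and 149 in slr1. The same genes had 772, 885 and 733 and 526, 575 and 527 in gid2-1, with no overlap. KSL5 and CYP71Z6 were the 2 higher genes, with log2 differences of 1.19 ± 0.31 and 1.30 ± 0.15. The call of KSL5 was lost without slr1 replicate 2, without slr1 replicate 3, with all 12 arrays in the fit and with spiked-control centring. T65 lay between the mutants for 12 of the 14 lower genes. With arrays centred on the spiked controls 12 genes were called lower.

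Other defence genes differed by less. Of 10 chitinase and glucanase genes 4 were lower, 1 was higher and 5 were not called. Cht11 had 2710, 2829 and 2636 in slr1 and 4694, 4711 and 4738 in gid2-1 (log2 difference -0.79 ± 0.07). Of 13 defence regulators 6 were lower, 2 were higher and 5 were not called. A single regulator was called higher without gid2-1 replicate 1 or 3 and without slr1 replicate 2 or 3. NH1, the rice relative of the salicylic acid receptor gene NPR1, had 1097, 1298 and 1364 in slr1 and 2740, 3085 and 2777 in gid2-1, a log2 difference of -1.20 ± 0.10. WRKY24 fell by 0.91 ± 0.08 on the log2 scale, and WRKY62 rose by 0.46 ± 0.07. The pathogenesis-related gene PBZ1 had 7541, 7871 and 7696 in slr1 and 13136, 12956 and 11858 in gid2-1. With arrays centred on the spiked controls 2 regulators and 1 chitinase were called lower and none was called higher.

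Genes of chlorophyll breakdown and the glyoxylate cycle were lower in slr1 without exception among the 5 measured. SGR, the stay-green gene that acts early in chlorophyll breakdown, had 1989, 2277 and 2572 in slr1 and 5937, 6843 and 5721 in gid2-1 (log2 difference -1.44 ± 0.11). NYC1, a chlorophyll b reductase, had 2279, 2334 and 2561 in slr1 against 8792, 9137 and 7512 in gid2-1 (log2 difference -1.82 ± 0.09). RCCR1, which acts later in the breakdown, had 627, 663 and 730 in slr1 and 2586, 2042 and 2568 in gid2-1. All 5 calls held with arrays centred on the spiked controls. SGR and NYC1 are also the markers of senescing leaf measured here. The share of senescing leaf in the shoots was not measured in another way.

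Abscisic acid and dehydration genes showed no common direction, with 3 of 15 higher and 5 lower. RAB21, a dehydrin that responds to abscisic acid, had 1558, 1658 and 1490 in slr1 and 224, 210 and 152 in gid2-1, a log2 difference of 3.02 ± 0.14. The receptor gene PYL11 had 3320, 3121 and 3121 in slr1 against 4921, 5192 and 4991 in gid2-1 (log2 difference -0.66 ± 0.07). The kinase SAPK9 had 270, 224 and 252 in slr1 and 2706, 2596 and 2835 in gid2-1, and SAPK8 of the same family overlapped between the lines.

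Among 58 auxin genes 11 were higher, 12 were lower and 35 were not called, beside 21.6% of all genes higher and 25.1% lower. The counts were 7 higher and 10 lower without slr1 replicate 2, and 4 higher and 6 lower with arrays centred on the spiked controls. GH3-8, an enzyme that conjugates auxin to amino acids, had 773, 847 and 777 in slr1 and 2782, 3796 and 2183 in gid2-1 (log2 difference -1.83 ± 0.16). The repressor gene IAA6 had 1830, 1766 and 1819 in slr1 against 4353, 4392 and 4472 in gid2-1, and IAA1 of the same family had 3576, 3822 and 3680 in slr1 against 1390, 1652 and 1227 in gid2-1. The family therefore held members of opposite direction, each without overlap.

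Among 26 cytokinin genes 7 were higher and 5 were lower, beside 21.6% of all genes higher and 25.1% lower. No direction of the cytokinin list is read from these counts. CKX11, a cytokinin oxidase, had 2031, 1689 and 1638 in slr1 and 399, 221 and 381 in gid2-1 (log2 difference 2.46 ± 0.20). The response regulator gene RR9 had 605, 688 and 645 in slr1 against 2056, 2359 and 2091 in gid2-1 (log2 difference -1.75 ± 0.09). Of 9 brassinosteroid genes BU1 was higher, with 270, 262 and 296 in slr1 and 19.4, 60.3 and 46.2 in gid2-1, where 1 array was below the background level. BZR1, the transcription factor of the pathway, fell by 0.54 ± 0.11 on the log2 scale, and the receptor gene BRI1 and 6 others were not called.

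Of 8 genes of carotenoid and strigolactone metabolism and response 5 were higher and 2 were lower. PSY2, a phytoene synthase at the entry to carotenoids, had 2122, 1975 and 1979 in slr1 and 200, 191 and 199 in gid2-1, a log2 difference of 3.36 ± 0.08. PSY1 had 3458, 3449 and 3627 in slr1 against 1318, 1432 and 1443 in gid2-1. The strigolactone receptor gene D14 had a log2 difference of 0.32 ± 0.10, and its call was lost in 10 alternative settings. Among these were the 2-fold threshold and the fits without gid2-1 replicate 1 or 3 and without slr1 replicate 2 or 3.

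Of 44 metal genes 13 were lower and 7 were higher, against 25.1% of all genes lower and 21.6% higher, and no direction of the list is read from these counts. Its largest differences were the rises of NAS2 and Nramp1. YSL13, a transporter of the metal-nicotianamine family, had 1092, 1090 and 1080 in slr1 and 5038, 5013 and 5013 in gid2-1, a log2 difference of -2.21 ± 0.07. NAAT1, which converts nicotianamine towards iron-chelating siderophores, had 2197, 2196 and 2468 in slr1 against 4118, 4702 and 4231 in gid2-1. T65 lay between the mutants for 12 of the 13 lower genes.

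Genes of nitrogen use were lower in 7 of 16 cases and higher in 4. NIA1, a nitrate reductase, had 1869, 1788 and 1758 in slr1 and 474, 407 and 502 in gid2-1 (log2 difference 1.97 ± 0.09). GLN2, the chloroplast glutamine synthetase, had 12448, 13874 and 14216 in slr1 against 7023, 7284 and 6485 in gid2-1. GLT2, a glutamate synthase, had 1764, 1595 and 1650 in slr1 and 6926, 6776 and 7470 in gid2-1 (log2 difference -2.08 ± 0.08), and T65, at 167, was below both.

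Among genes of sugar transport and cleavage 14 of 34 were higher and 6 were lower. SWEET2B, a sugar exporter family member, had 448, 565 and 446 in slr1 and 92.2, 64.2 and 72.7 in gid2-1 (log2 difference 2.68 ± 0.18). The cell wall invertase gene CIN2 had 623, 573 and 623 in slr1 against 138, 181 and 178 in gid2-1. The monosaccharide transporter gene MST3 was lower, with 3250, 3507 and 3776 in slr1 and 9521, 11220 and 8333 in gid2-1. SUS4, a sucrose synthase, fell by 1.12 ± 0.08 on the log2 scale.

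The remaining families, apart from the MADS-box genes, had calls in both directions. Of 51 calcium sensor kinase and partner genes 17 were higher and 18 were lower, from CIPK01, with 7809, 7734 and 7559 in slr1 against 2339, 1994 and 2074 in gid2-1, to CDPK21, with 336, 239 and 280 in slr1 against 1408, 1815 and 1366 in gid2-1. Of 18 glutaredoxins 6 were higher and 5 were lower. The lower count was 3 without gid2-1 replicate 2 or without slr1 replicate 3, 2 with arrays centred on their medians and 1 with spiked-control centring. GRXC1 had 2610, 2625 and 2487 in slr1 against 168, 190 and 171 in gid2-1. Of 7 BURP genes 3 were higher and 2 were lower. BURP02 had 1197, 1220 and 825 in slr1 and 232, 221 and 321 in gid2-1.

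Of 31 MADS-box genes, best known from flower development, 6 were lower, none was higher and 13 were below the background level throughout. Of all genes 25.1% were lower and 21.6% higher, and no direction of the list is read from these counts. MADS18 had 389, 387 and 471 in slr1 and 1146, 1228 and 1135 in gid2-1 (log2 difference -1.50 ± 0.10), with T65 at 1211. MADS55 had 355, 310 and 383 in slr1 against 893, 763 and 781 in gid2-1. Of 8 NAC transcription factor genes 2 were higher and 3 were lower. NAC071 had 5821, 5397 and 5520 in slr1 and 2525, 2178 and 2609 in gid2-1, and NAC2 had 259, 325 and 278 in slr1 against 689, 714 and 689 in gid2-1.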

How the data were processed

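Signals of the Affymetrix rice array were taken from the deposited table, as linear intensity values made by the authors. The software is not given in the sources used here, and the table holds no detection calls. The 2% trimmed mean was 500.1 on each array. Of 57381 probe sets 187 controls were left out. Signals under 1 were set to 1, log2 was taken without further normalization, and slr1 and gid2-1 were compared by limma (version 3.58.1, R 4.3.3), whose moderated test let the prior variance follow the signal, over these 6 arrays and with no replicate block. Adjusted p-values are Benjamini-Hochberg values over 57194 probe sets, and errors beside log2 differences are limma's standard errors. The fit was tested on simulated data.

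The array's annotation gave 1 gene for 22436 probe sets, several for 95 and none for 34663. The 17905 genes were all found in RefSeq's gene table, and 2458 had a name. The probe set with the highest mean stood for a gene. The 34 lists held 633 entries after 11 false name matches were left out. The lists, the comparison and the rule for named genes were chosen with earlier results of these data known. That rule takes GID1, GID2 and SLR1, the 12 largest rises and falls among called named genes without overlap and at or above the median signal, and from each list all members if there are at most 8, otherwise the 6 smallest p and the largest. A few members outside it were named after their values were seen: LOX2, OPR11, KSL5, CYP71Z6 and CYP701A9. No sequences or coordinates are given, since no genome of the array's build was used here. Alternatives changed the scaling (quantiles, array medians, spiked controls), the floor (a pseudocount of 16), the prior variance, the arrays in the fit (all 12), the probe sets used (no dim ones, none that cross-hybridize, gene averages) and the threshold (2-fold), added a replicate block or left out each array. Among the genes named, D35, KS1, GAMYB, TUBB3, OSH43, PIP2-2, NIP2-2, CYP76M8, SGR and PSY1 have probe sets that may also hybridize to similar genes.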

Additional observations from a re-analysis of the deposited data

How the results depend on the processing

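The main counts were 6201 probe sets higher and 7468 lower in slr1. With arrays centred on the spiked controls these became 2742 and 2534, and with a 2-fold threshold 2530 and 2367. The lower count became 4304 after centring on array medians, 4509 with a prior variance common to all signals and 4878 when the probe sets of each of 17905 genes were averaged, which tests fewer features. The cause of the other changes was not tested, apart from the 2-fold threshold, which by construction removes small differences. Leaving out 1 array at a time gave 4919 to 5956 higher and 5873 to 6900 lower, the fewest without slr1 replicate 2. Of 13669 calls, 5259 were shared with the spiked-control centring and 9176 with the median centring. The replicate block gave 5710 higher and 6722 lower. The labels do not pair the numbers, and deviations of same-numbered arrays correlated at 0.04, -0.02 and -0.29, so the block is no paired test. Of 189 called named genes 139 kept their call in every setting but the 2-fold threshold, and 47 lost it with spiked-control centring, 25 without the trend and 4 under the block. GLUA-2 was the single reversal, to a log2 difference of -0.49 with its probe sets averaged. Probe sets near the background level have no usable order between lines.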

Other observations

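Genes of chlorophyll synthesis were looked at after their values were seen, so their count is a description. Of 9 named genes, 7 were higher in slr1, 1 was lower and 1 was not called, beside 21.6% of all genes higher and 25.1% lower. GLK1, a transcription factor of chloroplast development, had signals of 3790, 3528 and 4056 in slr1 and 689, 741 and 693 in gid2-1. CHLH, a subunit of magnesium chelatase, had 9782, 9998 and 10717 in slr1 against 2466, 2264 and 2402 in gid2-1 (4.28-fold, limma). CHLP, the geranylgeranyl reductase, had 13970, 14486 and 15495 in slr1 and 3500, 3702 and 3474 in gid2-1. PORA and PORB, the protochlorophyllide reductases, were higher in slr1 with log2 differences of 1.57 ± 0.09 and 1.67 ± 0.07. In these 5 genes every slr1 array was above every gid2-1 array, while 36.0% of all probe sets had no overlap in either direction. The probe set of PORB can bind transcripts of related genes. GLK2 was higher by 0.45 ± 0.09 on the log2 scale, with a call that was lost under 3 of the alternatives besides the 2-fold threshold. CHLG was the lower gene, with a log2 difference of -0.30 ± 0.09. The call of CHLG was lost under 9 of the alternatives besides the 2-fold threshold, and HEMD was not called.

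Phosphate transporters of the Pht1 family were chosen in the same way. Of 7 named genes 3 were lower in slr1 and 4 were not called, beside 25.1% of all genes lower. Pht1-8 had 4062, 3559 and 3522 in slr1 and 6794, 7157 and 9737 in gid2-1 (log2 difference -1.07 ± 0.13, limma). Pht1-4 had 250, 288 and 320 in slr1 against 882, 1078 and 736 in gid2-1. The probe sets of Pht1-4 and Pht1-8 can bind transcripts of related genes. Pht1-1 was lower by its brightest probe set, while another probe set of that gene was called higher.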
